A study of Rattus norvegicus with 12 samples.

Results

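The probes described here are 496 oligos whose signal in rat brain stood apart on the arrays of rats given a herbal decoction after an arterial block. They were selected on the measured values from 38523 eligible probes. Eligible probes were those named rclstr whose signal was well above background on all 12 arrays, and the array held 57102 rclstr probes among 60148 distinct probes. A probe was a member if all 4 decoction arrays lay above, or all 4 lay below, each of the other 8 arrays in the deposited log2 values. Its mean over the 4 also had to differ from the mean over the 8 by at least 0.585 log2 units, which is a 1.5-fold difference. The rule found 157 members that were higher with the decoction, or 0.408% of the eligible probes. It found 339 that were lower, or 0.880%. These levels and differences chose the members, so they are given as a description, with no test, and support nothing.

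Each group had 4 samples of total RNA from rat brain. The control group is labelled normal. The model group had middle cerebral artery embolization and was taken at 7 days. The third group, BHD, had the same embolization followed by intervention with Buyang Huanwu Decoction (BHD), also at 7 days. The strain field of every sample reads male, and no strain or age was taken from the labels. The labels disagree in places. The tissue field reads brain whereas descriptions name the hippocampus. By the design text every group had ischaemia, whereas the controls are called normal, and the BHD descriptions carry 1 repeated replicate number whereas the titles run from 1 to 4. Groups were read from the titles. The labels do not tie samples to animals, so p-values measure only the spread between these samples, which may be technical. The control and model arrays shared slide 1 and its scan, and the BHD arrays alone lay on slide 2 with a scan of its own. The BHD group and the slide therefore cannot be told apart in any value below. On slide 1 the control arrays all lay in row 1 and the model arrays all in row 2. Differences between model and control therefore cannot be told apart from that position on the slide.

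As background, blocking the middle cerebral artery cuts blood flow to a large territory of the forebrain and is a standard rodent model of stroke. Buyang Huanwu Decoction is a mixture of several herbs used in traditional Chinese medicine after stroke. The study's title concerns circular RNAs, which form when the end of an exon is spliced back to an upstream exon, are common in brain and can bind microRNAs. The protocol primed total RNA with a T16N2 DNA primer and copied it into Cy3-labelled cDNA, so a signal need not come from a circular molecule. Because cDNA is complementary to its RNA, a probe that captures it carries the letters of the RNA itself. No table used here pairs these probes with genes, so the tissue could not be checked against cell markers, and fewer cells of a type cannot be told apart from less RNA per cell.

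The 4 higher members with the largest differences are shown first, because they carry the strongest upward shifts. Capitals mark the longest run of C and T in each 60-base probe.
rclstr_18311_505_5: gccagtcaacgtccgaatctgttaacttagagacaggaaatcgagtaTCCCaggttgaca
rclstr_46658_381_20: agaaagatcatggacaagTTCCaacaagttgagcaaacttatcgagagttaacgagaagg
rclstr_21102_1628_18: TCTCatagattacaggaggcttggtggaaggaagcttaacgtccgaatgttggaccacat
rclstr_61958_285_6: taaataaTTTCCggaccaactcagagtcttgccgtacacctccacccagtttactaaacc
The 4 lower members with the largest differences follow, with capitals marking the same feature.
rclstr_58950_379_14: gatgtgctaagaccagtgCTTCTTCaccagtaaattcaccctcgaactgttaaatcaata
rclstr_35128_1098_23: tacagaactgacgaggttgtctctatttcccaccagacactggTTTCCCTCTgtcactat
rclstr_29261_803_8: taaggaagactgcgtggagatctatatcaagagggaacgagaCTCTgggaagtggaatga
rclstr_23629_1940_12: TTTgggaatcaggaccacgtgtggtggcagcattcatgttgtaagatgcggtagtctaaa
The upper 4 hold 33, 40, 34 and 25 purines (A or G). The lower 4 hold 28, 23, 42 and 34. Base composition over all members is given further on.

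Among the higher members, rclstr_18311_505_5 had the largest difference. Its log2 levels were 3.19, 3.44, 3.50 and 3.48 in control replicates 1 to 4, 4.42, 5.28, 5.03 and 3.57 in model, and 5.68, 6.17, 5.62 and 5.41 in BHD. Its BHD mean lay 1.73 above the mean of the other 8, a 3.32-fold difference. Model replicates 1 to 3 lay between the other groups and model replicate 4 near the controls. The lowest BHD array, replicate 4, cleared the highest model array, replicate 2, by 0.13. Probe rclstr_46658_381_20 read 4.84, 4.55, 4.79 and 4.56 in control, 5.45, 5.38, 5.48 and 5.20 in model and 7.09, 6.56, 6.74 and 6.58 in BHD. All 3 groups were free of overlap, and the gap of 1.08 between BHD and the nearest other array was the widest among the 496 members. The difference was 1.71.

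Probe rclstr_21102_1628_18 was at 5.62, 5.37, 5.92 and 6.23 in control, 4.85, 6.40, 7.20 and 6.52 in model and 7.42, 8.01, 7.99 and 7.36 in BHD. Model spanned both sides of the controls with an SD of 0.99 (n = 4), against 0.36 in BHD, and the difference of 1.68 left a gap of 0.16. Probe rclstr_61958_285_6 was the brightest of the 8 higher members with the largest differences. It read 13.09, 13.30, 13.34 and 12.95 in control, 13.47, 14.20, 14.40 and 14.45 in model and 15.21, 15.13, 15.36 and 14.87 in BHD. The 3 groups formed 3 separate steps, with means of 13.17 ± 0.18, 14.13 ± 0.46 and 15.14 ± 0.20 (SD, n = 4). The other 4 of the 8 largest upward differences ran from 1.37 to 1.46. Of these, rclstr_22796_574_8 had the widest gap, 0.74, with BHD at 6.18, 6.58, 6.69 and 6.0, model at 5.20, 5.25, 5.26 and 5.18, and control at 5.16, 4.55, 4.48 and 4.88. Probes rclstr_40382_776_19, rclstr_33601_1270_16 and rclstr_19655_747_6 had gaps of 0.59, 0.49 and 0.23. Control and model overlapped in rclstr_40382_776_19, rclstr_33601_1270_16 and rclstr_19655_747_6, and BHD stood above both.

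Among the lower members the largest difference rested on the controls. Probe rclstr_58950_379_14 read 12.03, 13.02, 9.98 and 8.84 in control, 9.08, 8.97, 8.80 and 8.76 in model and 8.67, 8.40, 8.57 and 8.35 in BHD. Control replicates 1, 2 and 3 were high and the rest lay close together. The BHD difference was -1.435 from the 8 arrays but only -0.40 from the model mean, with a gap of 0.09. Probe rclstr_35128_1098_23 had a different shape, with 6.76, 7.00, 6.94 and 7.25 in control, 6.90, 6.73, 6.67 and 6.85 in model and 5.93, 4.85, 5.43 and 6.01 in BHD. Control and model overlapped, BHD was spread more widely (SD 0.53 against 0.20 and 0.10, n = 4), and the difference was a fall of 1.33.

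Probe rclstr_29261_803_8 read 7.24, 7.56, 7.19 and 7.56 in control, 8.09, 7.17, 7.76 and 7.27 in model and 6.45, 5.60, 6.0 and 6.60 in BHD. BHD replicate 2 was lowest and the gap was 0.56. Probe rclstr_23629_1940_12 read 5.19, 5.48, 5.98 and 6.46 in control, 5.50, 4.76, 4.70 and 5.69 in model and 4.26, 3.69, 4.16 and 4.64 in BHD. Its BHD and model arrays nearly met, with a gap of 0.06. The other 4 of the 8 were rclstr_32603_668_10, rclstr_13264_3328_10, rclstr_33024_823_17 and rclstr_29012_496_12, with differences of -1.25, -1.20, -1.20 and -1.17. In each of those 4, control and model overlapped, and the gap to BHD was 0.28, 0.48, 0.59 and 0.70. Chosen after its values were seen, rclstr_26567_775_8 had the widest gap among the lower members. It read 6.96, 7.03, 6.93 and 7.07 in control, 7.04, 7.02, 6.96 and 6.99 in model and 5.96, 6.04, 5.89 and 6.05 in BHD. The 8 control and model arrays of that probe spanned little, and BHD fell by 1.01 with a gap of 0.89.

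Most members differed by less than these. Over the 157 higher members the difference ran from 0.587 to 1.732, with a median of 0.749 or 1.68-fold, and 22 reached 1 log2 unit. Over the 339 lower members it ran from -1.435 to -0.586, with a median of -0.725 or 1.65-fold, and 38 reached 1 log2 unit. The gap between BHD and the nearest other array was under 0.1 in 60 higher and 97 lower members, and at least 0.5 in 18 and 25. The range of the 8 control and model arrays was wider than the difference itself in 87 of the 157 higher members and in 92 of the 339 lower. The members nearest the threshold were rclstr_53126_428_43, at 0.5868, and rclstr_42462_852_10, at -0.5861. Just outside it were rclstr_61241_171_16, at 0.583, and rclstr_37873_2_26, at -0.5844.

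With no minimum difference, 641 probes (1.66%) lay apart upward and 1269 (3.29%) downward. By the same rule with its minimum, model stood apart from the other 8 arrays in 63 probes upward (0.164%) and 41 downward (0.106%). Control stood apart in 177 upward (0.459%) and 282 downward (0.732%). In those counts the group that stood apart shared its slide with 4 of the 8 arrays it was set against. The lower share of the 496 members was 68.3%. It was 81.9%, from 119 higher and 538 lower probes, when each array was scaled to its 75th percentile, and 83.9%, from 89 and 465, when each was centred on the E1A spike-in probes. With normexp background correction and quantile scaling only 48 higher and 70 lower probes met the rule. Leaving out 1 array loosens the rule, and the higher count then ran up to 403 without BHD replicate 2, with 254 without model replicate 3 and 242 without BHD replicate 4. The lower count reached 530 without BHD replicate 4. Without BHD replicate 2 the lower count was 406, so the 2 directions were then near equal, with 50.2% lower.

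The individual arrays differed in how close they came to the boundary. Over the higher members the median level relative to the mean of the 8 was 0.80, 0.74, 0.78 and 0.71 in BHD replicates 1 to 4. It was -0.05, 0.15, 0.23 and 0.06 in model, and -0.06, -0.12, -0.13 and -0.07 in control. Model replicate 3 was the nearest of the 8 in 67 of the 157. Over the lower members the median was -0.81, -0.78, -0.71 and -0.66 in the BHD arrays, and between -0.08 and 0.07 in each of the other 8. BHD replicate 4 was the nearest BHD array in 136 of the 339 lower members and in 62 of the 157 higher members.

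Separating the 2 reference groups showed that the higher members differed more from control than from model. Their median BHD difference was 0.84 from control and 0.68 from model, and 98 of 157 differed from each by the minimum or more. For the lower members the medians were -0.75 and -0.73, with 223 of 339 past the minimum against both. Set against the model arrays alone, an alternative chosen after seeing the data, 242 probes were higher and 595 lower with BHD by the same kind of rule. Those included 108 of the 157 higher and 273 of the 339 lower members. Every member already lay apart from the model arrays by selection. The overlap therefore only counts members whose difference from the model mean reached the minimum.

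The difference between model and control was not used by the rule, and these groups shared a slide, so it was tested. Each group filled its own row of that slide, so the difference cannot be told apart from the row. limma was fitted to 44715 probes on log2 processed signal relative to each array's 75th percentile. The rule used the values of these 8 control and model arrays, so the comparison shares its arrays with the selection. In the deposited values the median SD over the 8 was 0.26 in higher members, 0.21 in lower members and 0.18 in all eligible probes. At the median, members were thus spread more widely over these arrays than eligible probes were. Across all tested probes 10 were called higher in model (0.0224%) and 11 lower (0.0246%) at an adjusted p under 0.05. Of the 157 higher members none was called by limma in either direction, and their lowest adjusted p was 0.0569. At an unadjusted p under 0.05 limma had 37 of them higher in model (23.6%) and 5 lower (3.18%), where all eligible probes gave 8.70% and 8.92%. In the deposited values the model mean lay above the control mean in 121 of the 157, or 77.1%, against 52.6% of all eligible probes. Their median model minus control difference was 0.15 on the fitted scale, where the median over all eligible probes was 0.01. It was 0.07 with normexp and 0.33 with E1A centring, which itself moved all probes up by 0.17. On each of these scalings the median of the higher members lay above control in the model group, the side on which they were selected with BHD. The scalings reuse the same control and model arrays that the rule used, so they are not independent support for a direction.

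The lower members were split between model and control. The model mean lay above control in 159 and below it in 180, and the median difference was -0.04, or 0.13 with E1A centring. At an unadjusted p under 0.05 limma had 26 higher (7.67%) and 37 lower (10.9%). None was called higher, and 1 of 339 was called lower (0.295%). That probe was rclstr_52293_327_12, at 7.79, 7.62, 7.85 and 7.79 in control, 7.10, 6.84, 6.75 and 6.56 in model and 6.47, 6.43, 6.55 and 6.49 in BHD. Every model array lay below every control array, and BHD lay lower still by a gap of 0.01. The limma difference was -0.96 ± 0.10 (SE) with an adjusted p of 0.00874. The call was lost without control replicate 3 (adjusted p = 0.0503) and without model replicate 2 (adjusted p = 0.0603), and adjusted p ran from 0.00135 to 0.0491 over the other settings. Of all 496 members 5 (1.01%) were called without model replicate 1, where 0.240% of all tested probes were, and 2 (0.403%) without model replicate 4, where 0.0402% were. With E1A centring, which carries the common shift given above, 47 members (9.48%) were called, and 2243 of all 44715 probes (5.02%).

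Base composition, which the rule did not use, differed between the 2 directions. Out of 60 bases the median number of purines was 30 over all eligible probes, 32 in the higher members and 28 in the lower members. The share of eligible probes that were higher members went from 0.219% at 25 or fewer purines, through 0.300%, 0.333% and 0.506%, to 0.694% at 35 or more. The share that were lower members went the other way, from 1.706% through 1.111%, 0.75% and 0.519% to 0.457%. The median G count was 14 over all eligible probes, 14 in the higher and 12 in the lower members, and the median C count was 14, 13 and 15. The label was carried on dCTP, which is built in opposite G of the RNA. Whether this bears on the G and C counts was not tested. The median GC content was 46.7% in the higher members, the lower members and all eligible probes, and over all eligible probes it ran only from 40% to 46.67%. The longest pyrimidine run had a median of 5 bases over all eligible probes, 5 in the higher and 6 in the lower members.

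The purine counts were also compared at like brightness, in 4 bins of equal size. All eligible probes had a median of 30 purines in each bin. Higher members had 33, 30, 31 and 33 from the dimmest to the brightest bin, and lower members had 27, 28, 27.5 and 28. The higher members thus stood above all probes in 3 of the 4 bins and the lower members below them in all 4. Across the 38523 eligible probes, which share the same 12 arrays, Pearson's r of purine count with the BHD difference was 0.112 and with the model minus control difference -0.024. Probes with model alone apart also differed in composition, with a median of 26 purines where model was higher and 31 where it was lower. Those where model was higher were gathered on the array, with a median row of 114 and quartiles of 79.5 and 136, where all eligible probes had 194, 97 and 289. Where control alone was apart the medians were 30 and 31 purines.

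Members were more frequent among dim probes. A probe's brightness depends on the probe as well as on the RNA, so it is no measure of abundance between probes. In the same 4 bins from dimmest to brightest, the higher members numbered 87, 37, 17 and 16 and the lower members 141, 130, 56 and 12. The bins were cut on the mean of the 8 control and model arrays, which the rule also used, so these counts are not independent of the rule. The median level over the 8 control and model arrays was 5.66 for the higher members, 6.27 for the lower and 7.72 for all eligible probes. Members were found in every part of the array, less evenly across its columns than across its rows. With the array's rows cut into 4 equal bands, each held between 22.3% and 28% of the higher members and between 22.7% and 29.5% of the lower, where all eligible probes had 24.7% to 25.2%. With the columns cut likewise each band held 20.4% to 27.4% of the higher members. The lower members had 16.8% in the first column band and 31% in the second, where all eligible probes had 24.9% and 25%. Only 2 members were printed as 10 spots each. In rclstr_39153_971_14 (difference 0.70) the SD between spots ran from 0.06 to 0.30 over the arrays, and in rclstr_43940_234_9 (difference -0.62) from 0.10 to 0.48.

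Few members were covered by a second probe. Of the 496, 475 shared no stretch of 20 or more bases with another probe on the array, and 21 did. The only pair of members that shared one is shown with the 42 shared bases in capitals, because it reads a stretch of sequence with separate spots.
rclstr_40718_916_12: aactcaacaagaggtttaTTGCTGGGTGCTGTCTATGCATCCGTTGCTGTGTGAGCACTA
rclstr_51762_578_522: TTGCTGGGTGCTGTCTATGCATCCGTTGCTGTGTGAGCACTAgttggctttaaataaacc
The first read 8.90, 9.08, 8.98 and 9.05 in control, 9.17, 8.81, 8.69 and 8.81 in model and 8.53, 7.43, 8.53 and 8.51 in BHD. The second read 8.89, 9.27, 9.01 and 9.0, then 9.24, 8.88, 8.69 and 8.80, then 8.45, 7.57, 8.53 and 8.55 in the same order. BHD replicate 2 was far below the other BHD arrays on both spots, and model replicate 3 was the lowest model array on both. The differences were -0.69 and -0.70.

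The array also held 3046 probes named for CIRCpedia, a database of circular RNAs, which the rule left out. Of these, 2856 were well above background on all arrays, and the same rule found 34 higher (1.19%) and 3 lower (0.105%). Among them 1 of the 3 shared 41 bases, in capitals, with a lower member.
rclstr_3504_2779_6: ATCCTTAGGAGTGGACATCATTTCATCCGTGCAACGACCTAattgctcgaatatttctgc
RNO_CIRCpedia_3457_0_12: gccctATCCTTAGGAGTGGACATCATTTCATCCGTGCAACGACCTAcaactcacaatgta
The member read 8.94, 9.38, 8.82 and 8.71 in control, 8.50, 8.35, 8.28 and 8.19 in model and 7.95, 8.12, 7.98 and 7.78 in BHD. The CIRCpedia probe read 8.74, 9.21, 8.67 and 8.54, then 8.35, 8.16, 8.20 and 8.05, then 7.76, 7.82, 7.73 and 7.61. Both stepped down from control to model to BHD without overlap, with control replicate 2 the highest array on each, and the differences from the 8 were -0.69 and -0.76. A further CIRCpedia probe, RNO_CIRCpedia_3631_10_6, shared 25 bases with rclstr_40660_516_7 but differed by only -0.09 where the member differed by -0.68.

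Partners that were not members mostly had the member's sign. On the same strand 14 such partners were well above background on all arrays. Of these, 13 shared the member's direction and 3 lay apart. Of those that lay apart, only the CIRCpedia probe above also met the minimum. The differences of these same-strand partners ran from 0.08 to 0.76 in size, and some members had more than 1 partner. In the longest overlap, of 58 bases, rclstr_44957_381_1008 differed by 0.64 and its partner rclstr_9794_3459_8 by 0.29. Next, rclstr_28985_1146_1006 differed by 0.80 and its partner rclstr_26223_1357_13, which shares 55 bases, by 0.60. Neither partner lay apart. On the opposite strand 5 partners were well above background on all arrays, 4 had the same sign, 1 lay apart and none met the minimum. The partner closest in sequence was the full reverse complement of a member, so the pair reads the 2 strands of 1 stretch, and capitals cover all 60 bases.
rclstr_57756_309_12: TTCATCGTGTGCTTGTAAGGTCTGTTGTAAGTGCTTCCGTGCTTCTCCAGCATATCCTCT
rclstr_54154_163_11: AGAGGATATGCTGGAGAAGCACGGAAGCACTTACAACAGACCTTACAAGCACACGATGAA
The member read 5.95, 5.91, 6.05 and 5.88 in control, 5.80, 5.65, 6.14 and 6.0 in model and 5.21, 5.38, 5.31 and 5.17 in BHD, a fall of 0.66. The opposite strand differed by 0.27, did not lie apart and was well above background on only 9 of the 12 arrays.

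Some members could be placed in the genome through RefSeq's table of 33469 windows that run from 250 bases before to 50 after a gene's start in the GRCr8 build. Of the 496, 9 lay whole in a window, all of them lower members. That is 2.65% of the lower members, none of the higher and 0.929% (358) of all eligible probes. The genes are Cpvl, a serine carboxypeptidase, Mok, a protein kinase, Mmadhc, which handles vitamin B12 inside the cell, Or2h2, an olfactory receptor, Ubap1l, and 4 loci known by number, LOC108352443, LOC108350412, LOC108352307 and LOC102555035. Of the 9, 7 lie on the gene's strand and those at Mok and LOC108352307 on the opposite strand. Such a position, mostly upstream of the annotated start, does not say which transcript the probe reads. Shown are those at Cpvl, Mmadhc, Or2h2 and Mok, in that order, with the longest run of C and T in capitals.
rclstr_21893_676_8: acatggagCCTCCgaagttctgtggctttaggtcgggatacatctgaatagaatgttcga
rclstr_34510_80_10: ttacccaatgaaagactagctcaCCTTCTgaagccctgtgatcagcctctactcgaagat
rclstr_40093_13_16: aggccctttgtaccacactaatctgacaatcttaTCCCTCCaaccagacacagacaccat
rclstr_23676_9_7: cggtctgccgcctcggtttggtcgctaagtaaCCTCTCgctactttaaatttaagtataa
The Cpvl probe covers chr4:84416071-84416130 on the minus strand, from 97 to 38 bases before the start. It read 8.77, 8.77, 8.98 and 9.03 in control, 9.01, 8.87, 8.77 and 8.66 in model and 7.71, 8.05, 7.85 and 7.82 in BHD. Control and model overlapped, and the BHD difference was -1.0. The Mmadhc probe, at chr3:55135797-55135856 on the minus strand, read 6.57, 6.38, 6.46 and 6.46 in control, 6.25, 6.56, 6.02 and 6.35 in model and 5.36, 5.71, 5.98 and 5.97 in BHD. Model replicate 3 nearly met the BHD arrays there. The Or2h2 probe, at chr20:1459250-1459309 on the plus strand, read 9.56, 9.34, 9.72 and 9.68 in control, 9.46, 9.50, 9.26 and 9.66 in model and 8.70, 8.53, 8.71 and 8.86 in BHD, and its difference was -0.83. The Mok probe, at chr6:135675984-135676043 and opposite in strand to the gene, differed by -0.72. The other 5 differed by -0.63 to -1.03. None of the members shared 20 bases with any of 419 RefSeq microRNA hairpins of the rat.

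Because BHD was alone on its slide, the members were set beside control probes not named for the rat, on the 75th-percentile scale. Whether matching RNAs were added to these samples is not given in the sources used here, apart from what the probe names say. With all their spots well above background there were 34, of which none met the membership rule, while 5 (14.7%) lay apart with a smaller difference. The higher were DCP_20_7 at 0.27, Human-PGK1_3 at 0.46 and Mouse-GAPDH_3 at 0.26, and the lower were ERCC-00062_278 at -0.48 and ETG05_66023 at -0.50. In the deposited values 0.408% of eligible probes met the rule upward and 0.880% downward. With no minimum, 1.66% lay apart upward and 3.29% downward. At such shares 34 probes are too few for the absence of any that met the rule to be read as a result. Of the 34, 8 were human or mouse Gapdh or Pgk1 probes, and 2 of these lay apart. Human-GAPDH_3 averaged 8.39 over the 8 control and model arrays and Rat-GAPDH_3 7.91. These human and mouse probes may therefore read rat RNA and are not a check on foreign sequences. The 8 E1A probes differed by -0.06 to 0.03 and none lay apart. The 4 rat control probes, for Gapdh and Pgk1, differed by -0.11 to 0.03 and none lay apart. On that scale the members' differences ran from 0.48 to 1.67 upward and from 0.60 to 1.44 in size downward.

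The control probes that were lower with BHD were dim. When, after seeing the data, control probes with at least 50% of their spots well above background were admitted, 7 of 36 (19.4%) lay apart and 1 met the rule. The shares of eligible probes to set beside these are those given above. All 3 ERCC probes (-0.80 to -0.39) and the 1 ETG probe (-0.50) lay apart downward. Of the rest, 0 of 8 E1A, 1 of 16 DCP and 2 of 8 human or mouse probes lay apart, all upward. The dim DCP_22_9, at -3.93 over the 8 control and model arrays, differed by -0.09 and did not lie apart. The probe that met the rule, ERCC-00028_121, read -4.19, -4.10, -4.01 and -4.06 in control, -4.18, -4.26, -4.18 and -4.06 in model and -4.98, -4.93, -5.02 and -4.79 in BHD. Its BHD arrays lay 0.80 below the other 8, a difference of -0.80, and its model minus control difference was -0.08. Around the level of the dim ERCC and ETG probes, from -4.27 to -3.29, lay 4794 eligible probes with a median BHD difference of -0.10. They included 89 lower members, which is 26.3% of the lower members and 1.86% of the band, and 29 higher members. Over all eligible probes the lower members made up 0.880% and the higher members 0.408%. The part of the slide in the members' differences cannot be told apart from that of BHD.

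Of the array-wide measures below, only local background set all BHD arrays apart from the others. The median local background was 19.42 ± 0.14 intensity units in BHD, 17.94 ± 0.22 in model and 18.16 ± 0.40 in control (SD, n = 4). The BHD arrays were above all others (exact two-sided permutation test, p = 0.0286 against each group, the smallest p that 4 against 4 allows, and 0.0429 adjusted over 6 tests). The mean E1A level relative to the 75th percentile was 4.73 ± 0.04 in BHD, 4.66 ± 0.05 in model and 4.83 ± 0.06 in control. It was lower in model than in control by 0.17 (exact permutation p = 0.0286, adjusted 0.0429), lower in BHD than in control by 0.10 (p = 0.0286, adjusted 0.0429), and BHD minus model was 0.07 (p = 0.0857, adjusted 0.1028). For rat Gapdh, the 3-prime control probe minus the 5-prime one, a guide to RNA length, was 3.04 ± 0.04 in control, 2.90 ± 0.06 in model and 2.91 ± 0.07 in BHD. The same measure for rat Pgk1 was 6.43 ± 0.06, 6.32 ± 0.12 and 6.42 ± 0.12 in the same order, so BHD was near model on the first and near control on the second, and neither was tested. Between 73.1% and 77.2% of spots were well above background on each array, and no spot that was not a control was saturated.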

How the data were processed

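Total RNA of 12 rat brain samples was hybridised to 1-colour Agilent arrays. The submitters' processing notes name Agilent Feature Extraction 10.7.1.1 for reading them. The scanner files hold processed spot intensity, background-subtracted per the file headers, local background intensity and 0 or 1 flags for well above background, outlier and saturation as other values per the file headers. The deposited table holds log2 values by the authors. Every column has a median of 6.134 and correlates with the scanner values at 0.9992 or higher, so scale and direction are settled, while the normalization step is not given in the sources used here. No genes were centred. Membership, levels and differences use the deposited log2 values.

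For the test, outlier spots were left out, spots of a probe were averaged as log2 processed signal, and values were set relative to the array's 75th percentile. Probes well above background on all arrays of at least 1 group (44715) entered limma 3.58.1 in R 4.3.3 with 1 mean per group over the 12 arrays and Benjamini-Hochberg adjustment over all of them. The script was tested on simulated data. Array measures were tested by exact permutation (scipy 1.17.1). Probes named were the 8 largest differences per direction, those nearest the threshold, probes sharing 20 bases or more, multi-spot members and members called by limma. Alternatives were other scalings, filters, minimums, a replicate block and leaving out each array. The number of arrays limits the precision. The members and lists were chosen with earlier results of these data known. The cell marker list was not run because no table pairs probes with genes.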

Additional observations from a re-analysis of the deposited data

Results flagged for a closer look

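Among 96 groups of 4 samples, 5 held an array whose gap to the nearest other array exceeded Dixon's limit, and chance flags about 1 in 20 groups. Both probes of the overlapping pair had BHD replicate 2 far below the other BHD arrays, at 7.43 in rclstr_40718_916_12 and at 7.57 in rclstr_51762_578_522. In the model group rclstr_40660_516_7 had replicate 4 at 6.80, below the other model arrays, and its overlapping probe RNO_CIRCpedia_3631_10_6 had the same array lowest at 7.70. The Rat-PGK1 3-prime minus 5-prime difference was 6.59 on 1 BHD array, above the other BHD arrays.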

How the results depend on the processing

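Quantile scaling gave 157 higher and 340 lower probes, with all 157 and 339 members among them. Scaling to the 75th percentile gave 538 lower probes, including 334 of the 339 members, and E1A centring gave 89 higher, including 81 of the 157. Normexp with quantile scaling gave 48 and 70, of which 47 and 67 were members, and its offset of 50 by construction compresses differences of dim probes. A minimum of 1 log2 unit gave 22 and 38, no minimum 641 and 1269, and the model arrays alone, an alternative chosen after seeing the data, 242 and 595. Leaving out 1 array gave 156 to 403 higher and 352 to 530 lower probes.

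Members called by limma between model and control numbered 1. With normexp there were 5 (1.01%, against 0.514% of all tested probes), with E1A centring 47 (9.48% against 5.02%) and with trend and robust fitting 3 (0.605% against 0.125%). At an adjusted p under 0.1 there were 10 (2.02% against 0.628%), and leaving out 1 array gave 0 to 5. Same-numbered control and model samples correlated at -0.194 to -0.038, and model and BHD samples at -0.113, 0.243, 0.19 and 0.211, so not every pair of a comparison was above 0.1 and the numbers were not taken to pair the samples. With the replicate block 1 member was called. The median model minus control difference of the higher members was 0.07 with normexp, 0.33 with E1A centring and 0.12 to 0.16 without 1 array. That of the lower members was 0.13 with E1A centring and -0.08 to -0.02 without 1 array. The cause was not tested, apart from the common shift of 0.17 that E1A centring applies to model against control. Control probes not named for the rat that met the membership rule numbered 5 with no minimum, 1 with at least 50% of spots well above background and 0 whichever array was left out. The dimmest of 4 equal bins of probes held 87 of the 157 higher and 141 of the 339 lower members. Whether dim signals limit the precision was not tested.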
